A study of Mus musculus with 37 samples.

Results

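The comparison described here is the first step of osteoclast formation in wild-type cells: WT day 2 cultures against WT day 0 cultures of mouse bone-marrow-derived macrophages. Its members were taken from the labels alone and are 4 RNA-seq libraries, 2 of WT day 2 and 2 of WT day 0, out of 12 RNA-seq libraries and 37 samples in the whole series. The other RNA-seq libraries are WT day 4 cultures and Arid1a KO cultures of days 0, 2 and 4, also 2 libraries each. All carry the same treatment label, osteoclastic differentiation, the day 0 libraries included, and no label names the ligands, the strain, or the age or sex of the animals. Total RNA was extracted with Trizol and made into libraries with the NEBNext Ultra kit. The 2 libraries of a day are numbered replicates, but nothing says that they came from separate animals or cultures. The p-values below rest on the spread between replicate libraries, estimated over all 12 RNA-seq libraries, and that spread may be technical. The text of the series' design names osteoblasts, whereas its title and sample labels name osteoclasts.

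Osteoclasts are the multinucleated, bone-resorbing cells that form when macrophage precursors receive M-CSF, through its receptor Csf1r, and RANK ligand, through its receptor RANK. RANK recruits TRAF adaptors and switches on NF-kB and MAP kinases, the MAP kinases raise AP-1 factors such as Fos, and NF-kB and Fos together start the expression of Nfatc1, the master factor of the lineage. Calcium signals from receptors with ITAM adaptors sustain Nfatc1, which then turns on the genes for cell fusion, acid secretion and matrix digestion. The WT comparison of day 2 with day 0 asks how far along this sequence the cells were.

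The WT day 2 libraries held 18209804 and 16383765 gene counts and the WT day 0 libraries 18603568 and 18608353. RNAs of the mitochondrial genome made up 2.17% and 2.14% of counts at day 2 and 1.67% and 2.21% at day 0. Levels are given below as CPM, the count of a gene scaled to the size of its library, replicate 1 before replicate 2. The markers Adgre1, Cd14, Cd68, Csf1r, Itgam, Mpeg1 and Lyz2 of the labelled macrophages were all expressed at both days, in every library above 200 CPM. Cd68, a lysosomal glycoprotein, stood at 976 and 922 CPM at day 2 and 924 and 858 CPM at day 0, and Itgam, the CD11b integrin chain, at 1184 and 917 CPM against 1087 and 1495 CPM, whereas Lyz2, Adgre1 and Csf1r fell (log2 -1.30, -1.39 and -0.94), as described below. The 2 day 0 libraries differed from each other more than the 2 day 2 libraries did: 1457 genes differed over 2-fold between the day 0 replicates and 434 between the day 2 replicates, after adding 0.5 CPM. Stromal markers took part in this. The 11 measured stromal and fibroblast markers summed to 6005 and 7423 CPM at day 2, against 387 CPM in day 0 replicate 1 and 3710 CPM in day 0 replicate 2. Of these 11 genes, 2 rose, Pdgfra, a growth factor receptor, and Dcn, a matrix proteoglycan with 0 counts in both day 0 libraries. Neither rise is stable to leaving out a library: Pdgfra lost its call without any 1 of the 4 libraries (adjusted p 0.0544 to 0.155), and Dcn without all but day 2 replicate 1 (0.0888 to 0.144). The collagen gene Col1a1 stood at 1482 and 2038 CPM at day 2 and at 82.4 and 1007 CPM at day 0, and was not called (adjusted p = 0.441). Of the other cell type lists, none of the tested B cell, T and NK cell, neutrophil, mast cell, dendritic cell, osteoblast and endothelial markers was called and no erythroid marker reached the count filter, whereas 2 of 4 tested megakaryocyte markers rose, the chemokine genes Ppbp and Pf4 described below. In bulk RNA, fewer cells of a type and less RNA per cell cannot be told apart.

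Of 12774 genes tested, 2211 changed at an adjusted p under 0.05 (edgeR quasi-likelihood test, Benjamini-Hochberg), 1029 rising and 1182 falling. A gene was thus called in 17.3% of cases, 8.06% for a rise and 9.25% for a fall, and these are the backgrounds for the gene lists below. In all 2211 called genes both day 2 values lay on the same side of both day 0 values, which was also true of 66.8% of all genes tested. The rises were larger than the falls. Of the genes that rose, 556 rose at least 2-fold and 167 at least 8-fold, while of those that fell 344 fell at least 2-fold and 12 at least 8-fold. The median log2 fold change was 1.08 among genes that rose, -0.76 among genes that fell and 0 among all genes tested. With limma on log2(TPM + 1), which moved the median of all genes by 0.10 on the log2 scale, the split was 1247 rises and 648 falls. With a replicate block, 1625 genes rose and 1565 fell. The calls were sensitive to the number of libraries: they numbered 1238 without day 0 replicate 1, 1457 without day 0 replicate 2, 488 without day 2 replicate 1 and 538 without day 2 replicate 2. In every one of these 4 fits 236 genes rose again (1.85% of genes tested) and 125 fell again (0.979%), and genes named below without a remark on a left-out library belong to these. In the day 0 libraries, replicate 2 exceeded replicate 1 over 2-fold in 1217 of all tested genes, in 41 of the genes that rose and in 5 of those that fell.

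**Figure D1:**
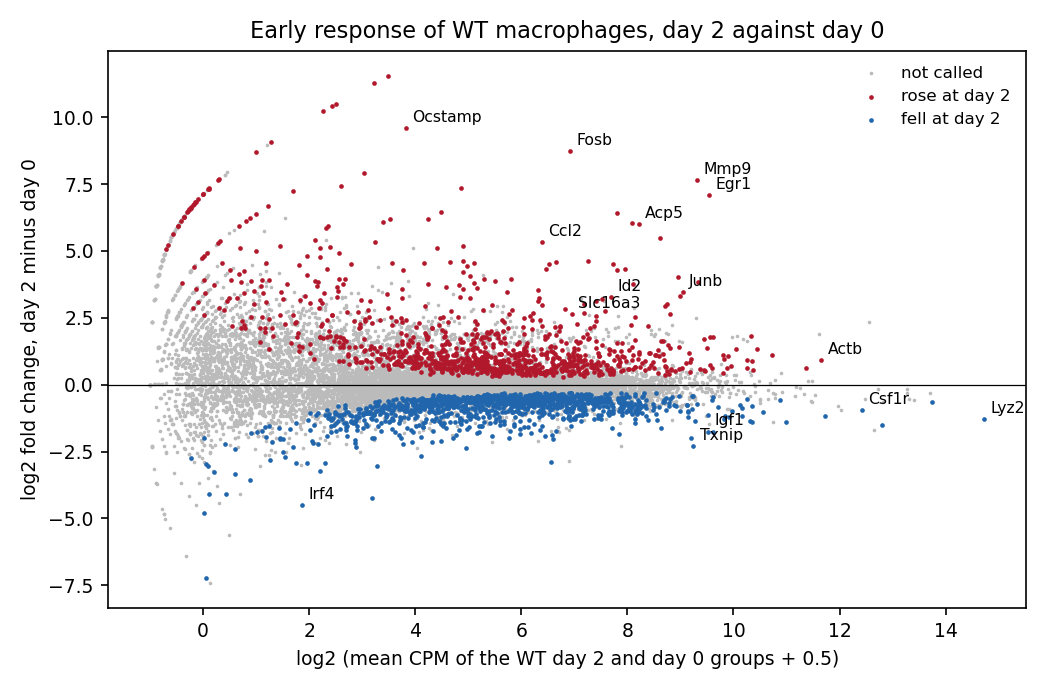
Each point is one of the 12774 tested genes, with log2 of its mean CPM in the WT day 2 and day 0 groups plus 0.5 on the horizontal axis and its log2 fold change, day 2 minus day 0, on the vertical axis. The 1029 genes that rose are red, the 1182 that fell are blue and the rest are grey; well-expressed rises such as Fosb at 8.72 and Mmp9 at 7.64 reach further from 0 than well-expressed falls such as Txnip at -2.29. The points that curve up at the far left are genes at or near 0 counts at day 0, whose fitted fold change is no bound.

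Among the 12 largest rises of genes with at least 5 CPM on average and over 3 counts at day 0 that recurred with every library left out, 5 were of the immediate-early or AP-1 lists: Fosb, Egr3, Egr1, Nr4a1 and Fos. Fosb, a partner of Jun in AP-1, had 276 and 208 CPM in the day 2 libraries and 0.523 and 0.607 CPM in the day 0 libraries, a log2 fold change of 8.72 ± 0.30 (SE; adjusted p = 7.59e-06). Egr1, a zinc-finger factor induced by MAP kinases, had 1396 and 1565 CPM at day 2 and 14.5 and 7.23 CPM at day 0 (log2 7.09 ± 0.48, adjusted p = 0.000199). In both genes the 2 day 2 libraries were close together and far above the 2 day 0 libraries. Fos itself, which is required for osteoclast formation in mice, had 708 and 826 CPM at day 2 and 27.3 and 7.01 CPM at day 0 (log2 5.49 ± 0.59, adjusted p = 0.00183). The orphan nuclear receptor gene Nr4a1 reached 592 and 482 CPM at day 2, against 4.83 and 11.4 CPM at day 0 (log2 6.04 ± 0.39, adjusted p = 0.000142). Egr3 had 53.5 and 59.7 CPM at day 2 and 0.0582 and 0.607 CPM at day 0, a log2 fold change of 7.36 ± 0.73, and Arc, an immediate-early gene best known from neurons, 56.1 and 57.8 CPM against 2.15 and 0.994 CPM. For Fos and Egr3 the day 0 replicates were several-fold apart, but that gap was small beside the distance to day 2.

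Among the 14 tested AP-1 family genes 10 rose and none fell, with a median log2 fold change of 2.76. Summed over the family the levels were 4390 and 4233 CPM at day 2 and 575 and 474 CPM at day 0. The Jun side rose with the Fos side: Junb had 954 and 981 CPM at day 2 and 89.8 and 85.2 CPM at day 0 (log2 3.47 ± 0.17, adjusted p = 4.74e-05), and Jun 484 and 535 CPM against 45.1 and 30.6 CPM (log2 3.75 ± 0.32). Jdp2, a Jun dimerization partner needed for full osteoclast differentiation in mice, had 158 and 193 CPM at day 2 and 6.51 and 8.67 CPM at day 0 (log2 4.53 ± 0.39). Atf4, which is translated under stress and joins AP-1 dimers, had 241 and 222 CPM against 71.9 and 70.9 CPM (log2 1.70 ± 0.19). Fosl1 and Fosl2, the remaining Fos relatives, rose by 3.15 and 3.0, but both lost the call without any 1 library (adjusted p 0.0675 to 0.129 and 0.0571 to 0.0921). The genes of the family that were not called were Atf2, Batf, Batf2 and Batf3.

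Of 24 tested immediate-early genes 18 rose and 1 fell, with a median log2 fold change of 2.90, or 2.72 with genes at 0 counts set to their bound. Btg2, an antiproliferative early gene, had 953 and 915 CPM at day 2 and 61.6 and 53.7 CPM at day 0 (log2 4.02 ± 0.41, adjusted p = 0.00145), and Ier2 had 402 and 447 CPM against 27.7 and 15.7 CPM. Myc, the growth regulator, had 98.9 and 108 CPM at day 2 and 4.13 and 9.22 CPM at day 0 (log2 3.95 ± 0.50). Srf, the serum response factor that itself drives many early genes, had 148 and 138 CPM against 39.7 and 37.9 CPM (log2 1.88 ± 0.10, adjusted p = 5.63e-05). Zfp36, whose product destabilizes cytokine mRNAs, had 472 and 629 CPM at day 2 and 135 and 105 CPM at day 0. The 1 gene that fell was Gadd45a, a DNA-damage response gene, at 15.0 and 16.8 CPM against 60.6 and 49.5 CPM (log2 -1.79), a call lost without day 2 replicate 1 (adjusted p = 0.0880) or replicate 2 (0.0778).

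The feedback brakes of MAP kinase signalling rose as well. Of 17 tested dual-specificity phosphatase, Sprouty and Spred genes 8 rose and 1 fell, with a median log2 fold change of 2.20. Dusp1, a nuclear phosphatase for p38 and JNK, had 428 and 383 CPM at day 2 and 18.3 and 17.0 CPM at day 0 (log2 4.52 ± 0.27, adjusted p = 7.91e-05). Dusp5, a phosphatase for ERK in the nucleus, had 288 and 295 CPM against 8.08 and 15.6 CPM (log2 4.62 ± 0.42), and Dusp4 rose by 4.61 on the same scale. Dusp7, which removes phosphate from ERK in the cytoplasm, went the other way, with 16.9 and 19.1 CPM at day 2 and 63.2 and 73.4 CPM at day 0 (log2 -1.92 ± 0.15, adjusted p = 0.00035). Spred1 and Spred2, inhibitors of Ras signalling, rose by 0.75 and 1.93.

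Promoter sequences of RefSeq (GRCm38.p6) were searched over the 250 bases before each gene's start, on both strands and at every start the table lists for a gene, for the CArG box bound by serum response factor, the cyclic AMP element TGACGTCA, the AP-1 motif TGANTCA and the NF-kB motif. A promoter was found for 10150 of the 12774 tested genes, and 142 of these held a CArG box (1.4%), 305 the cyclic AMP element (3.0%), 592 the AP-1 motif (5.8%) and 1082 an NF-kB motif (10.7%). Among the immediate-early genes that rose, 13 had a promoter in the table and 3 of them (23.1%) held a CArG box, Srf, Egr2 and Zfp36, as did 1 of 7 in the MAP kinase feedback list, Dusp5. These 4 are shown because they are the strongly rising early genes that hold the box, which is in capitals. The Srf and Dusp5 promoters each hold a pair, side by side without a gap in Dusp5. The windows run 5′ to 3′ on the gene's strand and lie at chr17:46556193-46556272 (minus strand) for Srf, chr19:53529035-53529114 (plus) for Dusp5, chr10:67537456-67537535 (plus) for Egr2 and chr7:28379259-28379318 (minus) for Zfp36.
Srf: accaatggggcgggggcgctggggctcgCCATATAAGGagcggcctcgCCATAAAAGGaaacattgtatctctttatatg
Dusp5: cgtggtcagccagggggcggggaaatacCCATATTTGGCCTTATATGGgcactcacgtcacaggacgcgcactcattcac
Egr2: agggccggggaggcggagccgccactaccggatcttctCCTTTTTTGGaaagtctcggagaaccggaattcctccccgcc
Zfp36: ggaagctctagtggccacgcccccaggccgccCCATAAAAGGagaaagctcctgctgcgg
A match is a run of letters, not a measured binding site, and 10 of the 13 early genes with a promoter had no CArG box in this window. Beside these windows stand the day 2 and day 0 levels of Srf, Dusp5 and Zfp36 given above, and those of Egr2, another zinc-finger early gene, at 182 and 201 CPM against 10.3 and 5.80 CPM (log2 4.57 ± 0.33, adjusted p = 0.000289).

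The NF-kB list also moved in 1 direction, with smaller steps. Of 13 tested members 8 rose and none fell, with a median log2 fold change of 0.93. The genes that rose most were relatives of the inhibitor gene Nfkbia and the feedback gene Tnfaip3. Nfkbiz and Nfkbid encode 2 nuclear relatives of Nfkbia. At day 2 they had 137 and 132 CPM and 26.0 and 30.1 CPM. At day 0 they had 33.2 and 43.4 CPM and 10.1 and 6.18 CPM (log2 1.81 ± 0.23 and 1.79 ± 0.22). Nfkbia, the classical inhibitor that holds NF-kB in the cytoplasm, had 140 and 137 CPM at day 2 and 65.0 and 74.9 CPM at day 0 (log2 0.98 ± 0.11, adjusted p = 0.00152). Tnfaip3, the A20 enzyme that ends TRAF signals, had 95 CPM in both day 2 libraries, against 38.1 and 42.1 CPM at day 0 (log2 1.24 ± 0.16, adjusted p = 0.00274). Of the subunits themselves, Nfkb2, the precursor of p52 in the alternative pathway, had 179 and 194 CPM at day 2 and 87.1 and 91.5 CPM at day 0 (log2 1.06 ± 0.15). Rel and Rela rose by 0.93 and 0.38, Rel losing its call without day 2 replicate 1 (adjusted p = 0.0545) or replicate 2 (0.0637) and Rela without any 1 library (0.0705 to 0.145). Nfkb1, the p105 precursor, was not called, with 173 and 168 CPM at day 2 and 168 and 158 CPM at day 0.

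Of the 8 NF-kB members that rose, 7 had a promoter in the table. An NF-kB motif was held by 6 of these 7 (85.7%), against 10.7% of all promoters, and the AP-1 motif by 3. Over the whole list, called or not, 7 of 10 promoters (70.0%) held an NF-kB motif and 3 of 10 the AP-1 motif. The NF-kB motif was thus frequent in the list as a whole and not only in members that rose. The windows of 4 are shown with both kinds of motif in capitals, 3 feedback inhibitors of the pathway and 1 subunit. They lie at chr12:55492648-55492727 (minus) for Nfkbia, chr19:46304657-46304736 (plus) for Nfkb2, chr10:19015411-19015550 (minus) for Tnfaip3 and chr17:45555535-45555614 (plus) for Nfkbie, the gene of another cytoplasmic inhibitor.
Nfkbia: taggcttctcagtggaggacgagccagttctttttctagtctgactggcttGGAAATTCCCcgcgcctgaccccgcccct
Nfkb2: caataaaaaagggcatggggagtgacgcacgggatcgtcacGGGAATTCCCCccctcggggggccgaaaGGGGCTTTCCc
Tnfaip3: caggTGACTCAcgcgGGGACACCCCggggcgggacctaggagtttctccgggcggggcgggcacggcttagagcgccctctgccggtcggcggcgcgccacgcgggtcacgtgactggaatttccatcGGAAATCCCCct
Nfkbie: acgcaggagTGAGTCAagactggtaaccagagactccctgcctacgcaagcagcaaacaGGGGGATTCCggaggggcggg
In Tnfaip3 and Nfkbie the first capital run is the AP-1 motif and the rest are NF-kB motifs, and in Nfkb2 the first run is 2 overlapping matches. Nfkbie had 48.8 and 46.1 CPM at day 2 and 17.3 and 21.1 CPM at day 0 (log2 1.31 ± 0.27, adjusted p = 0.0157), and kept its call only when day 0 replicate 2 was the library left out (0.0707 to 0.0841 for the others). Of 9 AP-1 family genes that rose and had a promoter, none held the AP-1 motif in this window and 4 (44.4%) held an NF-kB motif.

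Upstream of these factors, the RANK pathway changed in a few members. Of 29 tested genes 6 rose and 3 fell; the median log2 fold change was -0.10, and 0.02 on the log2(TPM + 1) scale. Tnfrsf11a, the gene of RANK itself, had 78.2 and 84.0 CPM at day 2 and 48.1 and 37.4 CPM at day 0 (log2 0.92 ± 0.13, adjusted p = 0.0034). Traf1, an NF-kB-induced adaptor, had 60.3 and 70.3 CPM against 2.97 and 2.54 CPM (log2 4.57 ± 0.42, adjusted p = 0.000938). Traf3, a brake on the alternative NF-kB pathway, rose by 1.14 ± 0.13. Src, the kinase that organizes the resorbing cell's cytoskeleton, had 99.2 and 126 CPM at day 2 and 16.3 and 23.5 CPM at day 0 (log2 2.50 ± 0.39, adjusted p = 0.00621). The members that fell were Mapk14, the p38α kinase, Ppp3ca, a calcineurin subunit, and Tec, a kinase of calcium signalling (log2 -0.85, -0.55 and -0.86), and all 3 lost the call without any 1 library (adjusted p 0.0674 to 0.147, 0.0717 to 0.162 and 0.0593 to 0.193).

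The receptor for M-CSF fell. Csf1r had 3820 and 3680 CPM at day 2 and 7379 and 7024 CPM at day 0 (log2 -0.94 ± 0.13, adjusted p = 0.00397), and it was the only 1 of 6 colony-stimulating factor receptor genes called. The ITAM and Fc receptor list, which holds the costimulatory chains, had 2 rises and 4 falls among 15 tested genes, and 7 falls with a replicate block. Its median log2 fold change was -0.75, or -0.53 with genes at 0 counts at their bound. Not all of the falls were of activating receptors. Fcgr2b, the inhibitory IgG receptor, had 238 and 142 CPM at day 2 and 474 and 480 CPM at day 0 (log2 -1.33). Its call did not recur in every fit with a library left out. Fcgr3, an activating IgG receptor, had 773 and 668 CPM at day 2 and 1914 and 1740 CPM at day 0 (log2 -1.34), and lost its call without day 2 replicate 1 (adjusted p = 0.0540) or replicate 2 (0.0735). Tyrobp, the adaptor DAP12, fell by 0.75 on the log2 scale, with 428 and 398 CPM against 741 and 653 CPM, and Trem2, its partner receptor, fell by 0.96. Both lost the call without any 1 library (0.0511 to 0.144 and 0.0635 to 0.125). Trem1, an amplifying receptor of inflammation, was the largest rise at 9.76 and 3.31 CPM against 0.174 and 0.276 CPM (log2 4.81 ± 0.80). Oscar, the osteoclast-associated receptor, had 0 counts in both day 0 libraries and 2.00 and 5.17 CPM at day 2, at least 41.4-fold higher taking 3 counts over the day 0 group as the floor, but was not called (adjusted p = 0.069).

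The master factor of the lineage did not pass the test. Nfatc1 had 129 and 141 CPM at day 2 and 83.8 and 84.4 CPM at day 0 (log2 0.68 ± 0.34, adjusted p = 0.19). The groups did not overlap and the replicates were close, and the gene was called when the 4 WT libraries of these 2 days were fitted alone (adjusted p = 0.0319) or the 6 WT libraries alone (0.0098), fits whose spread is not estimated with the KO libraries. Of the 9 NFAT and MITF/TFE genes, Tfeb, a regulator of lysosome genes, was called, falling by 0.70, a call kept only without day 0 replicate 2 (0.119 to 0.133 for the others). Mitf, another osteoclast factor, had 122 and 117 CPM against 124 and 102 CPM.

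The genes known to restrain osteoclast formation did not fall as a group. Of 9 tested repressors 2 rose and none fell, and 4 rose with a replicate block. Id2, an inhibitor of helix-loop-helix factors, had 412 and 334 CPM at day 2 and 40.6 and 36.5 CPM at day 0 (log2 3.27 ± 0.14, adjusted p = 2.43e-05). Id1 rose by 3.56 ± 0.72, a call lost without day 2 replicate 1 (0.0695) or replicate 2 (0.0608). Irf8, the macrophage factor that restrains Nfatc1, had 197 and 200 CPM against 377 and 263 CPM (log2 -0.69, adjusted p = 0.213). Irf4 was the only interferon regulatory factor called of 8 tested: it had 0.166 and 0.361 CPM at day 2 and 6.92 and 5.19 CPM at day 0 (log2 -4.50 ± 0.50, adjusted p = 0.00178). With a replicate block 3 of the 8 fell, Irf9 and Irf2 being the others, at adjusted p 0.0159 and 0.0265.

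Other transcription factors of the myeloid lineage split. Of 20 macrophage transcription factor genes 6 rose and 4 fell. Maff, a small Maf protein, had 63.2 and 54.7 CPM at day 2 and 2.79 and 2.65 CPM at day 0 (log2 4.43 ± 0.23, adjusted p = 4.97e-05), and Cebpb, a factor of inflammatory macrophages, had 252 and 189 CPM against 73.6 and 54.6 CPM (log2 1.78 ± 0.24). Spi1, which encodes PU.1, was not called, at 244 and 257 CPM against 286 and 253 CPM. Of 13 Kruppel-like factors 4 rose and 1 fell, led by Klf2 with 149 and 141 CPM at day 2 and 14.9 and 9.99 CPM at day 0 (log2 3.54 ± 0.39) and Klf4 with a log2 change of 2.52 ± 0.26. Klf6 was the most abundant of them, at 1202 and 1128 CPM against 411 and 260 CPM. Of 17 STAT and SOCS pathway genes 5 rose and 1 fell. Pim3, a survival kinase, had 81.5 and 88.1 CPM against 18 and 15.6 CPM (log2 2.34 ± 0.13), and Socs6 was the 1 that fell, by 1.16 ± 0.13.

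**Figure D2:**
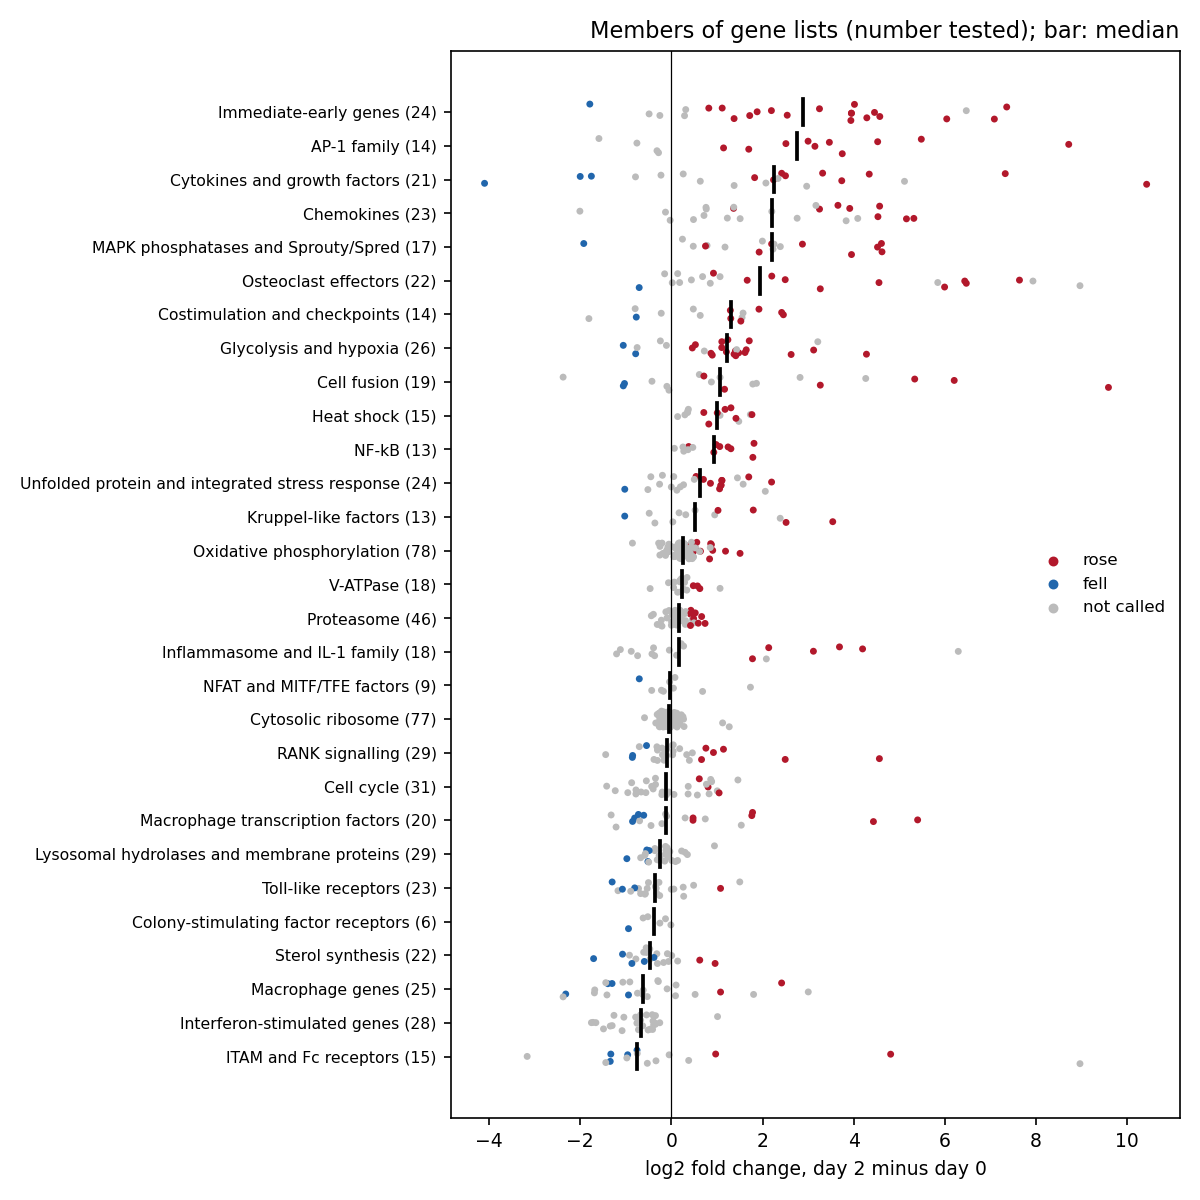
Each row is a gene list with the number of its members tested, each point is a member placed at its log2 fold change, day 2 minus day 0, and the bar is the median of the list; red points rose, blue points fell and grey points were not called. The immediate-early genes and the AP-1 family have the largest medians, 2.90 and 2.76, and the ITAM and Fc receptors and the interferon-stimulated genes the lowest, -0.75 and -0.68, though the first is -0.53 with genes at 0 counts at their bound, above the macrophage genes at -0.63.

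Many genes of the resorbing osteoclast were higher at day 2. Of 22 tested effectors 10 rose and 1 fell, with a median log2 fold change of 1.93. Mmp9, a gelatinase secreted by osteoclasts, had 1124 and 1400 CPM at day 2 and 2.73 and 9.88 CPM at day 0 (log2 7.64 ± 0.69, adjusted p = 0.000948). Acp5, the tartrate-resistant acid phosphatase used to stain osteoclasts, had 549 and 623 CPM against 14 and 4.42 CPM (log2 6.0 ± 0.80, adjusted p = 0.0036). Slc9b2, a sodium-proton exchanger of osteoclast mitochondria and membranes, had 43.4 CPM in both day 2 libraries and 0.640 and 0.331 CPM at day 0 (log2 6.47 ± 1.01). Each of these was low in both day 0 libraries and high in both day 2 libraries. Ctsk, the collagen-digesting cathepsin K, had 469 and 410 CPM at day 2 and 3.43 and 6.68 CPM at day 0 (log2 6.44 ± 1.26, adjusted p = 0.0141), yet lost its call without any 1 of the 4 libraries (0.0506 to 0.0735). Mmp14, a membrane-bound collagenase, had 286 and 254 CPM against 39.4 and 77.9 CPM (log2 2.20 ± 0.32).

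Other effectors reached lower CPM at day 2 than Mmp9, Acp5 or Ctsk, or had calls that rested on all 4 libraries. Of the 22 effectors, 20 had a positive log2 fold change, called or not. Car2, the carbonic anhydrase that supplies protons, had 19.1 and 24.0 CPM at day 2 and 1.10 and 0.718 CPM at day 0 (log2 4.56), and Itgb3, the chain of the vitronectin receptor, 60.2 and 41.5 CPM against 5.29 and 5.25 CPM (log2 3.27). Both were called at adjusted p 0.0269 and 0.0498 and lost the call without any 1 library (0.0775 to 0.101 and 0.118 to 0.160). Siglec15, a sialic acid receptor that couples to DAP12, had 2.22 and 1.26 CPM at day 2 and 0 counts in both day 0 libraries, at least 20.7-fold higher, with an adjusted p of 0.0522, or 0.0220 with a replicate block. Calcr, the calcitonin receptor of mature osteoclasts, had 0.388 and 0.421 CPM against 0 counts, at least 4.76-fold higher, and was not called. The effector that fell was Plekhm1, a regulator of lysosome transport, with 158 and 156 CPM at day 2 and 291 and 220 CPM at day 0 (log2 -0.71), a call kept only without day 0 replicate 2 (0.0942 to 0.120 for the others). Of 18 tested genes of the acid-secreting V-ATPase pump 3 rose, beside 8.06% of all genes, none of them in every fit with a library left out, and Atp6v0d2, the subunit tied to fusion, was not called at 250 and 232 CPM against 169 and 61.0 CPM.

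Cell fusion genes were partly induced. Of 19 tested 6 rose and 2 fell, with a median log2 fold change of 1.07. Ocstamp, a multipass membrane protein needed for fusion in mice, had 941 counts over the day 2 libraries and 1 count over the day 0 libraries, a ratio of 958.9 with a 95% exact interval from 171.7 to 37910 that covers counting error only. Its levels were 22.2 and 32.5 CPM at day 2 and 0 and 0.0552 CPM at day 0 (adjusted p = 0.00183). Dcstamp, its relative, had 37.8 and 34.7 CPM at day 2 and 0.756 and 0.221 CPM at day 0 (log2 6.21 ± 1.26, adjusted p = 0.0158), and lost its call without any 1 library (0.0571 to 0.0697). Cd200, a surface glycoprotein that promotes fusion, had 16.9 and 18.1 CPM against 0.407 and 0.442 CPM (log2 5.34 ± 0.66), while its receptor gene Cd200r1 fell by 1.03, with 82.4 and 70.5 CPM against 177 and 135 CPM, a call lost without any 1 library (0.0554 to 0.193).

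Some genes were all but unread at day 0: 59 called genes that rose had 3 or fewer counts over the day 0 libraries, 33 of them 0. Scin, an actin-severing protein of osteoclasts, had 22 and 20.5 CPM at day 2, at least 250.7-fold higher than day 0, where it had 0 counts, but lost its call without any 1 library (adjusted p 0.0512 to 0.0585). Cyp2s1, a cytochrome P450, was at least 206.5-fold higher, with 15.1 and 20.2 CPM at day 2. Rufy4, an autophagy regulator, had 536 counts at day 2 and 2 at day 0, a ratio of 273.1 (95% exact interval 75.23 to 2261), and Mst1r, a receptor kinase for macrophage-stimulating protein, 383 and 2 counts, a ratio of 195.1 (53.65 to 1617), a call lost without any 1 library (0.0601 to 0.0800). Stc1, a secreted glycoprotein, was at least 126.4-fold higher, but its 2 day 2 libraries differed widely at 18.7 and 2.11 CPM, and the call held only without day 2 replicate 2 (0.0797 to 0.0940 for the others). Mgam, a brush-border glucosidase, rose by 6.21 ± 1.07, with 19.1 and 24.0 CPM against 0.407 and 0.166 CPM.

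**Figure D3:**
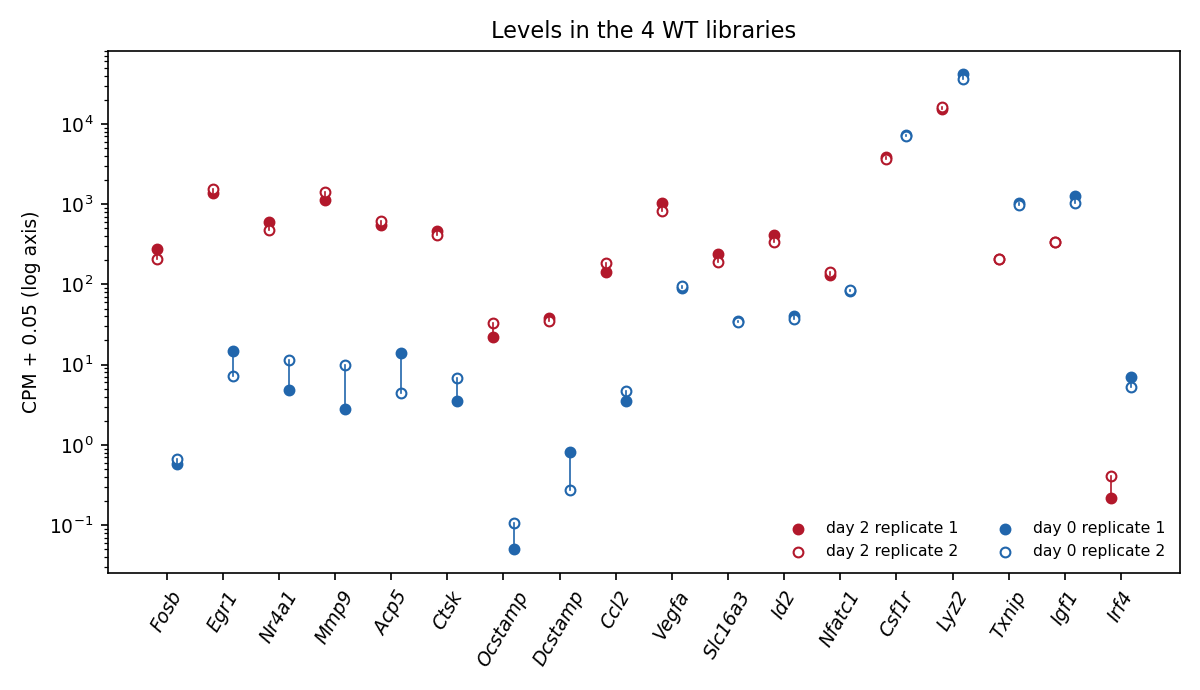
Each column is a gene and each point a library, with its level in CPM plus 0.05 on a log axis, the 2 WT day 2 libraries left of the 2 WT day 0 libraries. Filled points are replicate 1 and open points replicate 2, joined by a line. Fosb, Mmp9 and Ocstamp show wide gaps between the days, Nfatc1 shows both days close together, and Csf1r and Lyz2 are lower at day 2.

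Of 30 integrin and podosome genes 9 rose and 2 fell, with a median log2 fold change of 0.68, but 1 of the 9 rises, Itga9, and 1 of the falls, Itga4, recurred in every fit with a library left out. Itga9 had 116 and 96.8 CPM at day 2 and 23.8 and 23.4 CPM at day 0 (log2 2.17 ± 0.20, adjusted p = 0.000791), and Itga4, the chain of VLA-4, had 186 and 201 CPM against 705 and 497 CPM (log2 -1.63 ± 0.23). The count of rises was 7 without day 0 replicate 2, 2 without day 2 replicate 2 and 1 without either of the others. Itgav, the partner of Itgb3, had 431 and 432 CPM at day 2 and 107 and 165 CPM at day 0 (log2 1.66), a call kept only without day 0 replicate 2 (0.0945 to 0.111 for the others). Day 0 replicate 2 was above replicate 1 in several members, as it was for the stromal markers (6005 and 7423 CPM at day 2 against 387 and 3710 CPM at day 0): Actn1, an actin crosslinker, had 439 and 504 CPM at day 2 and 145 and 267 CPM at day 0, and Vcl, vinculin, 290 and 413 CPM against 28.8 and 133 CPM, not called. The part of the stromal markers in the result was not tested. Actin rose too, Actg1 with 2011 and 1985 CPM against 673 and 905 CPM (log2 1.34) and Actb with 4193 and 4260 CPM against 1941 and 2519 CPM (log2 0.92). These 2 near-identical genes may share reads, and Actb kept its call only without day 0 replicate 2 (0.0598 to 0.0693 for the others).

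Many cytokine and chemokine genes rose. Of 21 cytokine and growth factor genes 9 rose and 3 fell, and of 23 chemokine genes 8 rose and none fell, with median log2 fold changes of 2.24 and 2.20, the second 1.37 with genes at 0 counts at their bound. Ccl2, the monocyte attractant, had 142 and 184 CPM at day 2 and 3.43 and 4.69 CPM at day 0 (log2 5.32 ± 0.24, adjusted p = 2.85e-05), and its neighbours in function Ccl7 and Ccl12 rose by 4.57 and 5.16. Osm, an interleukin 6 family cytokine, had 191 and 146 CPM against 9.60 and 7.01 CPM (log2 4.34 ± 0.24, adjusted p = 5.63e-05). Vegfa, the angiogenic factor, had 1029 and 828 CPM at day 2 and 89.5 and 96.5 CPM at day 0 (log2 3.32 ± 0.41). Il6 was uneven, at 18.1 and 1.5 CPM at day 2 and 0 counts at day 0, at least 119.6-fold higher, with a call that held only without day 2 replicate 2 (0.0694 to 0.0867 for the others). Tnf, which can promote osteoclast formation, rose by 2.50, with 23.0 and 20.6 CPM against 4.54 and 3.15 CPM, and lost its call without day 0 replicate 2 (0.0513) or day 2 replicate 1 (0.0593). The summed stromal markers were also higher at day 2, 6005 and 7423 CPM against 387 and 3710 CPM, and stromal cells express several of these genes, Ccl2, Ccl7 and Il6 among them, so the values stand side by side and their part in the result was not tested. The platelet chemokine genes Ppbp and Pf4, also on the megakaryocyte list, had 41.1 and 25.8 CPM and 782 and 502 CPM at day 2, against 1.10 and 1.77 CPM and 162 and 336 CPM at day 0. Ppbp lost its call without day 2 replicate 1 (0.0564), and Pf4 kept it only without day 0 replicate 2 (0.0732 to 0.203 for the others). The megakaryocyte list summed to 835 and 539 CPM at day 2 and 195 and 345 CPM at day 0, and its part was likewise not tested.

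Among 23 eicosanoid, itaconate and arginine genes 7 rose and 4 fell, with a median log2 fold change of 0.62, or 0.15 with genes at 0 counts at their bound. Ptgs2, the inducible cyclooxygenase, had 556 and 391 CPM at day 2 and 9.77 and 37.9 CPM at day 0 (log2 4.31 ± 0.72, adjusted p = 0.00863). Pla2g4a, which frees arachidonate for it, and Ptger4, a receptor for its product prostaglandin E2, rose by 1.90 ± 0.25 and 1.92 ± 0.22. Odc1, the first enzyme of polyamine synthesis, had 263 and 238 CPM against 30.0 and 47.7 CPM (log2 2.69 ± 0.33). The members that fell were Ptger2, another prostaglandin E2 receptor, Alox5ap, the activator of leukotriene synthesis, Hpgds, a prostaglandin D2 synthase, and Tbxas1, the thromboxane synthase (log2 -1.72, -1.08, -0.72 and -0.62). Alox5ap and Hpgds lost the call without any 1 library (0.0509 to 0.121 and 0.0631 to 0.149), Ptger2 without day 2 replicate 1 (0.0857) or replicate 2 (0.0783) and Tbxas1 without day 2 replicate 1 (0.0826). Among 18 inflammasome and interleukin 1 genes 5 rose and none fell: Il1b had 75.6 and 35.1 CPM at day 2 and 3.66 and 2.37 CPM at day 0 (log2 4.2 ± 0.69), and Nlrp3, the sensor that activates its processing, 283 and 229 CPM against 56.4 and 59.97 CPM (log2 2.14 ± 0.23). C3, the central complement component, had 1013 and 1387 CPM against 108 and 62.0 CPM (log2 3.82 ± 0.63, adjusted p = 0.00791). Of 14 costimulation and checkpoint genes 6 rose and 1 fell, with Pvr, a ligand of DNAM-1, the 1 that rose in every fit (log2 1.52 ± 0.18). Among 28 interferon-stimulated genes none was called with edgeR, their median log2 fold change being -0.68, and 4 fell with a replicate block. The 2 day 2 libraries lay apart here: the list summed to 516 CPM in replicate 1 and 1071 CPM in replicate 2, against 1348 and 1283 CPM at day 0. Spp1, osteopontin, a bone matrix protein, had 1717 and 2318 CPM against 321 and 817 CPM (log2 1.83 ± 0.38), a call lost without day 2 replicate 1 (0.0581) or replicate 2 (0.0923).

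The glycolytic genes rose as a broad group. Of 26 glycolysis and hypoxia genes 18 rose and 2 fell, with a median log2 fold change of 1.22, and 12 rose in every fit with a library left out. Their summed level was 11990 and 10210 CPM at day 2 and 4873 and 5124 CPM at day 0. Slc2a1, the glucose importer GLUT1, had 372 and 234 CPM at day 2 and 35.2 and 34.5 CPM at day 0 (log2 3.12 ± 0.36, adjusted p = 0.00205), and Slc16a3, the lactate exporter MCT4, 238 and 188 CPM against 34.7 and 34.2 CPM (log2 2.63 ± 0.20, adjusted p = 0.000307). Between them in the pathway, Pkm, pyruvate kinase, had 2481 and 2163 CPM against 1121 and 1038 CPM (log2 1.10 ± 0.14), and Ldha, lactate dehydrogenase, 1139 and 996 CPM against 304 and 349 CPM (log2 1.71 ± 0.22). Hif1a, the hypoxia factor, had 840 and 620 CPM at day 2 and 245 and 303 CPM at day 0 (log2 1.41 ± 0.20), and Egln3, one of its targets, rose by 4.28 ± 0.71. The members that fell were Pfkfb4, a regulator of glycolytic flux, and Hk3, a myeloid hexokinase, with log2 changes of -1.06 and -0.78. Pfkfb4 kept its call only without day 0 replicate 2 (0.0563 to 0.0890 for the others), and Hk3 lost it without any 1 library (0.0956 to 0.173).

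Mitochondrial genes moved less. Of 78 oxidative phosphorylation genes 11 rose and none fell, with a median log2 fold change of 0.26, and the number that rose was 3 without day 0 replicate 1, 12 without day 0 replicate 2, 2 without day 2 replicate 1 and 1 without day 2 replicate 2. Cycs, cytochrome c, rose in every such fit, with 18.5 and 20.0 CPM at day 2 and 5.53 and 8.01 CPM at day 0 (log2 1.51 ± 0.19, adjusted p = 0.00254). Of 19 tricarboxylic acid cycle genes 4 rose and none fell, among them Idh3a, an isocitrate dehydrogenase subunit, with 77.2 and 69.4 CPM against 20.7 and 20.1 CPM (log2 1.84 ± 0.31), a call lost without day 2 replicate 1 (adjusted p = 0.0523). Of 77 mitochondrial ribosome genes 7 rose, near the 8.06% of all genes. None of the 77 cytosolic ribosome genes was called, and their median log2 fold change was -0.06, or 0.06 on the log2(TPM + 1) scale. The mitochondrial genome's ND1, a complex I subunit, had 3165 and 3264 CPM against 1904 and 2254 CPM (log2 0.63) and lost its call without any 1 library (0.0510 to 0.155).

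Chaperone genes rose while several antioxidant genes fell. Of 24 genes of the unfolded protein and integrated stress responses 10 rose and 1 fell, 8 of the rises in every fit. Hspa5, the chaperone BiP of the endoplasmic reticulum, had 1272 and 1316 CPM at day 2 and 672 and 549 CPM at day 0 (log2 1.08 ± 0.12, adjusted p = 0.00183), whereas Ern1, the IRE1 sensor of misfolded protein, fell, with 95.5 and 93.5 CPM against 189 and 195 CPM (log2 -1.02 ± 0.15). Of 15 heat shock genes 7 rose and none fell, led by Dnajb1, a cofactor of Hsp70, with 152 and 124 CPM against 44.5 and 36.3 CPM (log2 1.77 ± 0.15). Of 24 antioxidant genes 4 rose and 4 fell. Txnip, an inhibitor of thioredoxin and of glucose uptake, had 205 and 207 CPM at day 2 and 1027 and 984 CPM at day 0 (log2 -2.29 ± 0.14, adjusted p = 7.91e-05), and Cat, catalase, 684 and 760 CPM against 2103 and 1664 CPM (log2 -1.38 ± 0.20, adjusted p = 0.00472). Gclm, a subunit of the glutathione-making enzyme, and Sod1, a superoxide dismutase, fell (log2 -1.01 and -0.69). All 4 falls recurred in every fit with a library left out, and none of the 4 rises did, the strongest being the cystine importer Slc7a11 at 112 and 74.1 CPM against 20.5 and 9.44 CPM, lost without day 2 replicate 1 (0.0637). Of 46 proteasome genes 10 rose and none fell, with a median of 0.18 and no rise present in every such fit.

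Several abundant macrophage genes were lower at day 2. Of 25 tested 2 rose and 4 fell, with a median log2 fold change of -0.63, and 7 fell with a replicate block. Their summed level was 41600 and 41190 CPM at day 2 and 91680 and 71070 CPM at day 0, much of it from Lyz2. This gene, lysozyme, had 15260 and 16100 CPM at day 2 and 41310 and 36010 CPM at day 0 (log2 -1.30 ± 0.23, adjusted p = 0.00918), and lost its call without day 2 replicate 1 (0.0688) or replicate 2 (0.0636); its near-copy Lyz1 may share reads. Adgre1, the F4/80 antigen, had 1062 and 1179 CPM at day 2 and 3015 and 2874 CPM at day 0 (log2 -1.39 ± 0.37, adjusted p = 0.0372), and lost its call without any 1 library (0.0811 to 0.166). Of the 4 falls only that of Csf1r recurred in all 4 fits. The count of falls was 2 without day 0 replicate 1, 5 without day 0 replicate 2 and 1 without either day 2 library. The 2 that rose were Cx3cr1, a chemokine receptor, and Cd14, the endotoxin coreceptor. Cx3cr1 had 67.0 and 97.9 CPM at day 2 and 6.92 and 23.85 CPM at day 0 (log2 2.42 ± 0.51), a call lost without either day 2 library. Cd14 had 651 and 391 CPM against 267 and 226 CPM (log2 1.08), a call kept only without day 2 replicate 2.

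Large losses of transcript also came from other secreted and lysosomal genes. Selenop, a selenium carrier, had 3600 and 3726 CPM at day 2 and 10060 and 11030 CPM at day 0 (log2 -1.53), and Ctsb, cathepsin B, 12060 and 9242 CPM against 17170 and 16580 CPM (log2 -0.66). Both were called at adjusted p 0.0293 and 0.0473 and lost the call without any 1 library (0.0711 to 0.139 and 0.0821 to 0.247). Serinc3, a membrane protein that restricts retroviruses, fell by 1.18, a call kept only without day 0 replicate 1 (0.0564 to 0.0986 for the others). Of 29 lysosomal genes 4 fell and none rose, of 19 scavenger and efferocytosis receptor genes 4 fell and 1 rose, and of 23 genes of the Toll-like receptor pathway 3 fell and 1 rose, 7 falls with a replicate block. Scarb1, a lipoprotein receptor, and Irak4, the first kinase after Toll-like receptors, fell in every fit (log2 -0.82 and -0.81). The share that fell in each list was 4 of 29, 4 of 19 and 3 of 23, beside 9.25% of all genes.

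Other falls that recurred in every fit included genes outside these lists. Frat2, a regulator of Wnt signalling, had 1.83 and 2.17 CPM at day 2 and 19.1 and 13.6 CPM at day 0 (log2 -3.03 ± 0.32, adjusted p = 0.00143). Igf1, a growth factor made by macrophages and a member of the cytokine list, had 333 and 338 CPM against 1246 and 1020 CPM (log2 -1.76 ± 0.20, adjusted p = 0.00183). St8sia4, a polysialic acid transferase, had 103 and 98.4 CPM at day 2 and 392 and 326 CPM at day 0 (log2 -1.84). Slit1, a guidance ligand, Abcd2, a peroxisomal fatty acid transporter, and Il16, a T cell attractant, fell with log2 changes of -2.23, -1.98 and -1.71, and 3 zinc-finger genes, Zfp84, Zfp472 and Zkscan14, with -2.13, -2.01 and -2.0. Few genes were lost altogether: 5 called genes had 3 or fewer counts at day 2. Dgkg, a diacylglycerol kinase, had 0 counts at day 2 and 38 at day 0, at least 12.4-fold lower, a call lost without day 2 replicate 1 (0.0847) or replicate 2 (0.0825). Tnfsf13b, the B cell factor BAFF, had 2 and 39 counts, a ratio of 0.0523 (95% exact interval 0.00611 to 0.202), also lost without day 2 replicate 1 (0.0545) or replicate 2 (0.0506).

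Cdkn1b, the p27 inhibitor of cyclin-dependent kinases, had 42.5 and 37.7 CPM at day 2 and 114 and 108 CPM at day 0 (log2 -1.47 ± 0.17, adjusted p = 0.00183). Of 13 cyclin D and inhibitor genes 3 rose and 2 fell. Of 14 BCL2 family genes 3 rose and 2 fell, and they did not point one way. Bmf and Bbc3, which promote death, fell (log2 -1.90 and -1.99), and Bcl2, which opposes it, rose (log2 1.8). Bcl2l1, which also opposes death, rose (log2 0.89), but so did Pmaip1, which promotes it. All of these lost the call without day 2 replicate 1, Bcl2l1 also without day 0 replicate 1 and Pmaip1 without any 1 library. Of 31 cell cycle genes 3 rose and none fell, but the 2 day 0 libraries lay far apart here: the list summed to 955 and 1060 CPM at day 2 and to 557 and 1520 CPM at day 0. Without day 0 replicate 2, 11 of the list rose, and without day 0 replicate 1, 7 fell. No direction for proliferation can be read from these 4 libraries. For the MHC class II genes the day 0 libraries also lay far apart, but with replicate 1 the higher. They summed to 2551 and 2544 CPM at day 2 and 1435 and 271 CPM at day 0. None of 8 was called, and 4 had a positive log2 fold change. Apoe, an apolipoprotein of macrophages, had 2863 and 3240 CPM against 15670 and 3912 CPM and was not called (adjusted p = 0.103).

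**Figure D4:**
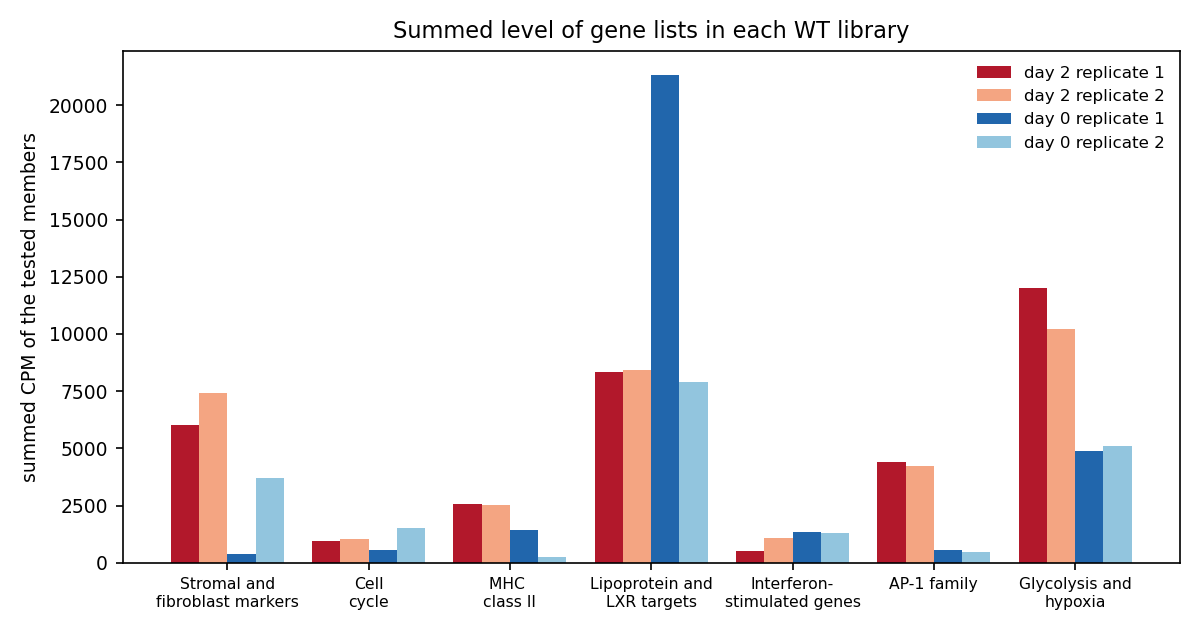
Bars give the summed CPM of gene lists in each of the 4 WT libraries, with the 2 day 2 bars left of the 2 day 0 bars in each list. The AP-1 family and the glycolysis and hypoxia genes are high in both day 2 libraries, at 4390 and 4233 CPM and 11990 and 10210 CPM, whereas for stromal markers, cell cycle, MHC class II and lipoprotein genes the 2 day 0 bars differ widely. For the interferon-stimulated genes the 2 day 2 bars differ, at 516 and 1071 CPM.

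Arid1a, the chromatin remodeler gene targeted in the KO cultures, was not called in WT cells. It had 169 and 175 CPM at day 2 and 242 and 197 CPM at day 0 (log2 -0.35 ± 0.14, adjusted p = 0.11). Of 25 BAF and related remodeler genes 1 rose and 3 fell, with a median log2 fold change of -0.01, which was 0.01 with DESeq2 size factors and 0.11 on the log2(TPM + 1) scale. Actl6a, an actin-related subunit, was the 1 that rose, by 0.61, and Smarcd2, Smarca2 and Arid1b fell, with log2 changes of -0.38, -0.48 and -0.32. Actl6a, Smarcd2 and Smarca2 lost the call without any 1 library (adjusted p 0.0541 to 0.134, 0.0669 to 0.149 and 0.0826 to 0.171), and Arid1b kept it only without day 0 replicate 2 (0.112 to 0.193 for the others). Between Arid1a KO and WT cultures, a difference in the day 2 change was called for 1 gene of 12774 (0.00783%, edgeR interaction term), Tnfaip3. That number was 0 with limma-voom and 101 with DESeq2, so it does not count the genes that truly differ.

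The WT day 4 libraries allow the day 2 levels to be set beside a later time. At days 0, 2 and 4 the pairs of levels were 0.523 and 0.607, 276 and 208, and 0.154 and 0.359 CPM for Fosb, and 14.5 and 7.23, 1396 and 1565, and 8.95 and 9.07 CPM for Egr1. Nr4a1 had 1.75 and 2.25 CPM at day 4, lower than its 4.83 and 11.4 CPM at day 0, and Vegfa 84.0 and 80.1 CPM, near its day 0 level. Fos was intermediate, with 198 and 182 CPM at day 4. The osteoclast genes were higher again at day 4: Mmp9 at 5554 and 7111 CPM, Acp5 at 2603 and 3482 CPM, Ctsk at 5370 and 7034 CPM and Nfatc1 at 694 and 733 CPM. Jdp2 followed these rather than the early genes, at 720 and 776 CPM, as did Tnfrsf11a at 199 and 210 CPM. Csf1r, Lyz2 and Adgre1 were lower again, at 858 and 976, 832 and 736, and 81.4 and 72.8 CPM. Txnip stood at 220 and 244 CPM, close to its day 2 level. The comparisons of day 4 with day 2 and of day 2 with day 0 share the day 2 libraries, so these values are given side by side only.

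**Figure D5:**
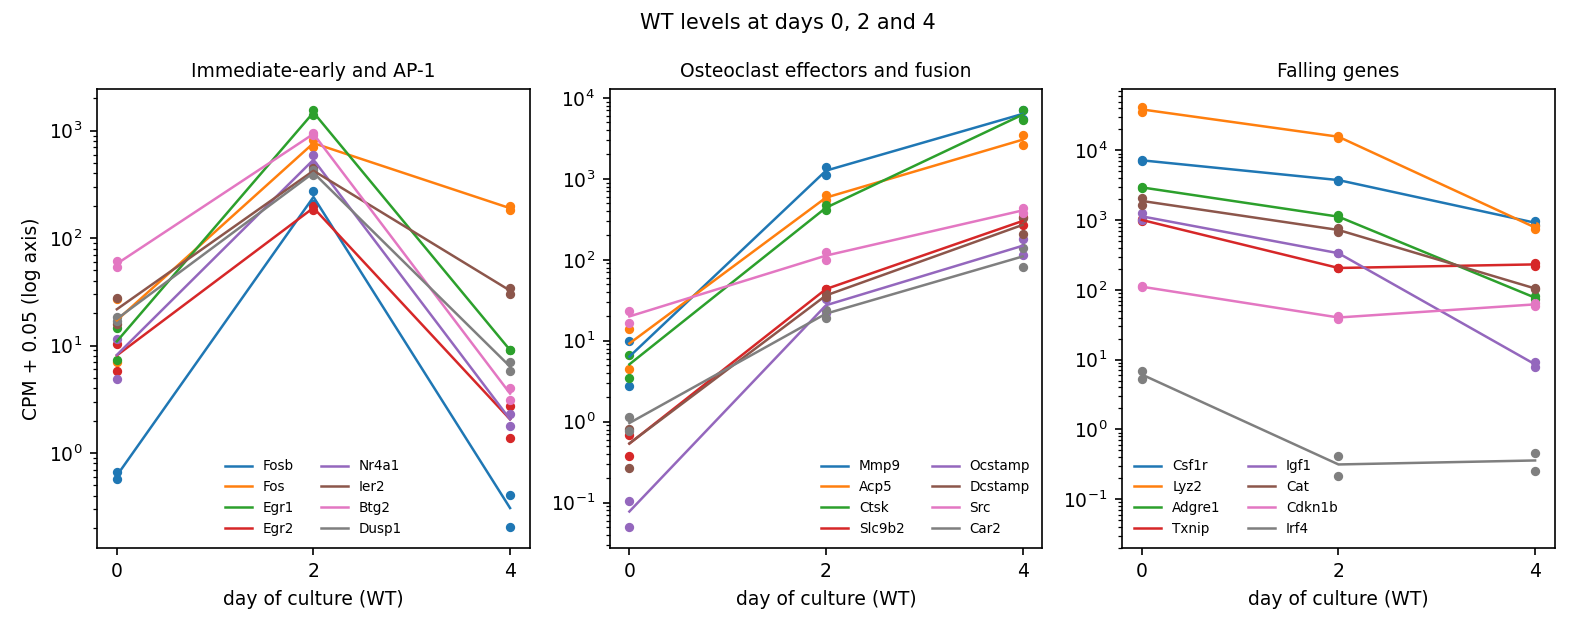
Levels in WT cultures at days 0, 2 and 4 (CPM plus 0.05, log axis); points are the 2 libraries of a day and lines join their means. Early genes such as Egr1 peak at day 2 at 1396 and 1565 CPM, osteoclast and fusion genes such as Mmp9 climb through day 4, and macrophage genes such as Csf1r descend, with Txnip and Cdkn1b levelling after day 2.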

How the data were processed

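Mouse bone-marrow-derived macrophage RNA-seq was deposited as 1 table of estimated counts and 1 of TPM values over 23170 genes. Per the submitters' processing notes, reads were handled with tools that include RSEM 1.3.1, Trim Galore 0.6.1, DESeq2 and STAR 2.7.3a; mm9 and mm10 are both named without a role, and the strand setting is not given in the sources used here. The deposited expected counts per gene are whole numbers, with no row that names no gene, and the TPM values deposited by the authors, scaled to transcript length and library size, served only as an alternative scale. All other deposited files were not used here.

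Counts were filtered with filterByExpr (minimum count 10, leaving 12774 genes), scaled by TMM and tested with the quasi-likelihood test of edgeR 4.0.16 (limma 3.58.1, R 4.3.3) in 1 fit over all 12 RNA-seq libraries, with Benjamini-Hochberg adjustment and a threshold of 0.05; SE is from that fit. Alternatives were DESeq2 1.42.0, limma-voom, limma on log2(TPM + 1) and log2(TPM + 0.1), other filters (none, or 5 CPM in 2 libraries), a minimum log2 fold change of 1, smaller sets of libraries, each of the 4 libraries left out, and a replicate block. The replicate differences of the WT days correlated weakly (r = 0.215, 0.111 and 0.302 between days). Between WT day 0 and the KO groups of days 0, 2 and 4, r was -0.356, -0.536 and -0.405, larger in size. For WT days 2 and 4 against the KO groups it ran from -0.089 to 0.039. These values do not show that the replicate number pairs the WT libraries. The replicate block assumes such pairs and was an alternative only. The scripts were tested on simulated data.

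Named genes were the 12 largest rises and falls called in every fit with a library left out and with at least 5 CPM on average and over 3 counts in the lower group, the 8 largest gains and losses in CPM, the 6 genes switched on or off with most CPM, the 4 members of each list with the smallest adjusted p, and a fixed set; other list members named in the text were chosen after their values were seen. This comparison and all gene lists were chosen with earlier results of these data known. The libraries of the comparison were then taken from the labels alone. Predicted genes, pseudogenes and 26 date-like names (17 tested) were counted but not named. Of the gene names, 21597 matched RefSeq symbols. Exact binomial intervals (95%) and the floor of 3 counts cover counting error only. A few genes that the rule names are not reported here.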

Additional observations from a re-analysis of the deposited data

Results flagged for a closer look

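The day 2 change of Tnfaip3, the A20 gene, differed between the genotypes: the Arid1a KO change exceeded the WT change by 2.39 on the log2 scale (edgeR interaction term, adjusted p = 0.0484). It was the 1 gene called for this difference among 12774 (0.00783%), with 1216 at an unadjusted p under 0.05. Tnfaip3 had 157 and 177 CPM at KO day 2 and 15.4 and 11.6 CPM at KO day 0, and 95 CPM in both WT day 2 libraries against 38.1 and 42.1 CPM at WT day 0. The KO libraries were thus higher at day 2 and lower at day 0 than the WT libraries. In 7 of the 8 fits that leave out 1 WT or KO library of day 0 or day 2 no gene was called for this difference, and 5 were called without WT day 0 replicate 2.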

How the results depend on the processing

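Among the genes that the naming rule selects, which are the single genes recomputed under each alternative, the direction changed for 2, neither of them called: Ciita ranged from -1.95 to 0.16 on the log2 scale with a library left out, positive without WT day 0 replicate 1, and Nr1h2 was 0.067 with log2(TPM + 1) and 0.067 with log2(TPM + 0.1). The number of called genes was 900 with a log2 fold change of at least 1 (556 rose, 344 fell) and 1315 with the 4 libraries alone (667 rose, 648 fell). It ran from 488 to 1457 with a library left out, with 294 to 771 rises and 194 to 704 falls. DESeq2 called 1690 rises, and the TPM scales 648 falls, or 575 with the smaller pseudocount. The replicate block, which pairs libraries by number within a genotype, gave 1625 rises and kept 221 named results on their side of the threshold, adding 18 and losing 1, Cdkn2c (adjusted p = 0.0544). The KO difference was called for 0 genes with DESeq2 size factors, 0 with the stricter filter, 0 with limma-voom, 2 with log2(TPM + 1), 2 with the replicate block and 101 with DESeq2, and for 0 to 5 genes with a library left out, 5 without WT day 0 replicate 2. The cause was not tested. With 2 libraries a day, leaving out 1 leaves a lone library that is assumed to vary like the others, and loss of a call then also reflects fewer samples. Without WT day 2 replicate 1 or replicate 2, 97 and 83 of these genes lost their call, against 56 and 53 without day 0 replicate 1 or replicate 2.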

Other observations

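Some smaller gene groups changed in a few members. Of 12 tested genes that couple osteoclasts to bone formation 4 rose and none fell, 7 with a replicate block. C3, which is on this list too, rose in every fit with a library left out, and each of those fits called 2 members. Sphk1, the kinase that makes sphingosine 1-phosphate, had 6.33 and 8.36 CPM at WT day 2 and 0.523 and 0.607 CPM at WT day 0 (log2 3.68 ± 0.67, edgeR adjusted p = 0.0098), a call lost without day 0 replicate 1 (0.0507) or day 2 replicate 2 (0.0535). Of 22 sterol synthesis and uptake genes 2 rose and 5 fell, and 8 fell with a replicate block. The falls were 6 without day 0 replicate 1, 1 without day 0 replicate 2 and 0 without either day 2 library. Tm7sf2, a sterol reductase, had 2.77 and 2.83 CPM at day 2 and 7.39 and 10.9 CPM at day 0 (log2 -1.71), lost without day 2 replicate 1 (0.0636) or replicate 2 (0.0606).

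Of 15 genes on a list of inhibitory myeloid receptors and their activating relatives, Cd300lb among the latter, 4 fell and none rose. Cd300lb, a receptor of myeloid cells, had 244 and 225 CPM at day 2 and 551 and 459 CPM at day 0 (log2 -1.11 ± 0.18, adjusted p = 0.00722), lost without day 2 replicate 2 (0.0605). Pirb, a receptor that binds MHC class I, had 191 and 213 CPM against 479 and 353 CPM, kept only without day 0 replicate 2 (0.0850 to 0.114 for the others). Without day 2 replicate 2 none of the 15 was called and without each other library 2 were. Of the 9 tested Notch pathway genes 1 rose and 2 fell: Notch2, a receptor, had 330 and 314 CPM at day 2 and 585 and 537 CPM at day 0 (log2 -0.80 ± 0.16), lost without day 2 replicate 1 (0.0688) or replicate 2 (0.0854).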
